A study of Mus musculus with 9 samples.

Results

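The lungs of vehicle control mice (NC) were described from 3 RNA-seq libraries, chosen by their label from the 9 libraries of the study, without comparing them with the other groups. The animals were male C57BL/6N mice that were instilled with PBS through the nose and received 2% DMSO as an oral vehicle once a day over days 1 to 14, and the lungs were taken on day 15. They received no LPS and no cigarette smoke condensate, to which the mice of the other 6 libraries were exposed, and no plant extract, which 3 of those libraries involve. The labels number the NC samples as replicates and do not say whether each number is 1 animal, so the spread given here is that between these samples and may be partly technical. The samples were lung tissue, and which part of the lung was taken for each is not given in the sources used here. A level is an average over all cells of the sample, and fewer cells of a type cannot be told apart from less RNA per cell. The study also lavaged lungs, and whether the sequenced lungs were lavaged is not given in the sources used here.

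Lung is a mixture of a conducting and a gas-exchanging part. The conducting airways are lined by secretory club cells, which make secretoglobins and detoxifying enzymes, by ciliated cells, and by a few mucus-making goblet cells, most of which lie in the larger airways. The alveoli are lined by flat alveolar type 1 cells and by cuboidal alveolar type 2 cells that secrete surfactant, and are wrapped in capillary endothelium.

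The table gave an estimated read count, an FPKM and a TPM for 129299 transcripts of 45777 genes. TPM is a level per transcript length, scaled to the same total in every library, and is used below unless another scale is named. Totals were 42156219, 30686772 and 25236827 counts in NC replicates 1, 2 and 3. Since non-coding RNA took most of the TPM, levels were also rescaled so that the nuclear mRNA transcripts alone reach that total, written mRNA TPM. Both scales are per length, and changing the scale multiplies all genes of a library alike.

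NC replicate 1 stood apart from the others. Over 14399 nuclear protein-coding genes with a mean of at least 1 mRNA TPM, the correlation across genes of log2(mRNA TPM + 1) was 0.90 between replicates 1 and 2, 0.91 between 1 and 3, and 0.94 between 2 and 3 (genes of a library share its depth and are not independent). The 2072 such genes with a mean of at least 10 TPM and 100 counts were compared on mRNA TPM. Replicate 1 was the farthest from the other libraries in 1223 (59.0%), replicate 2 in 390 (18.8%) and replicate 3 in 459 (22.2%). Replicate 1 was over 1.5 times above both other libraries in 114 of these genes and over 1.5 times below both in 433. These counts depend on the scale. Nuclear mRNA summed to 143038, 107407 and 101266 TPM in replicates 1, 2 and 3, so rescaling raises replicate 1 least. Eif4g1, with 24.1, 24.2 and 24.2 TPM, had 169, 225 and 239 mRNA TPM. The share of all genes lowest in replicate 1 was not counted, so list counts below have no such background. Replicate 1 was also the deepest library and had the largest mitochondrial share, and their part in these differences was not tested. Of the 35 cell-type marker lists, the summed TPM was highest in replicate 1 for 16 and lowest there for 18, and on mRNA TPM these numbers were 12 and 20. For that reason each level below is given library by library.

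Stretches of sequence before transcription starts are shown for genes described below. Scgb1a1 and Sftpc had no entry in the set of windows used. Claudin-18 (Cldn18), a tight junction protein, has a first start known for its use in stomach (A2) and another known for its use in lung (A1). Sftpb encodes surfactant protein B, and Bpifa1 and Scgb3a1 encode secreted airway proteins whose levels were among those that differed most between the NC libraries. Each window holds the 250 bases before the start on GRCm38.p6, the RefSeq build that corresponds to mm10. Capitals mark every match, on either strand, to 3 motifs that do not overlap here. The TATA box was searched as TATAAA. A core of forkhead factor sites was searched as TGTTTNC. The sequence CAAGTG stood for sites of NK2 homeodomain factors, to which Nkx2-1 belongs.
Cldn18 A1 start, chr9:99710064-99710313, minus strand: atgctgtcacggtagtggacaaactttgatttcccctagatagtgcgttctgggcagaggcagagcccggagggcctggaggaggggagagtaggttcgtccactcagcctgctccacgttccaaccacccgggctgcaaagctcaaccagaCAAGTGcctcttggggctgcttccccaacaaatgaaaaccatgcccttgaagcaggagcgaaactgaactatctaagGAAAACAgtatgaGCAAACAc
Cldn18 A2 start, chr9:99717268-99717517, minus strand: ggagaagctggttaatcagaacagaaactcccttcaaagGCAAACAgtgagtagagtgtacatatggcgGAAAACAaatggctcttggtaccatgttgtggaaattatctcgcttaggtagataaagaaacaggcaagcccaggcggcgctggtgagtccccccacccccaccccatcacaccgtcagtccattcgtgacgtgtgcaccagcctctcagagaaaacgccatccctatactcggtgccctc
Sftpb, chr6:72304360-72304609, plus strand: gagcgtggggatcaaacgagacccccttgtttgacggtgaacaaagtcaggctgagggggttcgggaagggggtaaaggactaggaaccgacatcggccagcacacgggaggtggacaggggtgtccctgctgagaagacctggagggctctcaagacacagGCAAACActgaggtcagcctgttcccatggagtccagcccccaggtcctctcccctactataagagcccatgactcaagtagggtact
Bpifa1, chr2:154142630-154142879, plus strand: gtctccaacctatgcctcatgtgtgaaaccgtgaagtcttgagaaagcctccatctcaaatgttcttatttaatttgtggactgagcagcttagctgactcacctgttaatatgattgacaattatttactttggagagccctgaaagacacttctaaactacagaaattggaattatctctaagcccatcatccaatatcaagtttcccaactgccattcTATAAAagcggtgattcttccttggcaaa
Scgb3a1, chr11:49663345-49663594, plus strand: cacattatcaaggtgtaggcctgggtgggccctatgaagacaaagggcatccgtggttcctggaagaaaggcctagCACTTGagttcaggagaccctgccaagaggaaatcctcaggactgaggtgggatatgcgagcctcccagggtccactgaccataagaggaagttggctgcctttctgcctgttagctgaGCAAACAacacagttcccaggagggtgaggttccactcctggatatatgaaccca
Of 485 genes in the lists or among the most abundant, 347 had a window in the RefSeq set. Over all 32851 windows of the same length, 12.4% held the TATA box, 17.8% the forkhead core and 11.6% the NK2 motif. The Cldn18 A1 window held an NK2 match 98 bases before the start and forkhead-core matches 21 and 8 bases before it, whereas the A2 window held forkhead-core matches 211 and 181 bases before the start and no NK2 match. The Bpifa1 window held a TATA box match 29 bases before the start, and that of Scgb3a1 held 1 NK2 and 1 forkhead-core match. The Sftpb window held 1 forkhead-core match, 88 bases before the start. These are matches of letters, and binding was not measured.

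Nuclear mRNA took about the same share of the counts in each library. It amounted to 49.6, 48.0 and 47.6% of counts in NC replicates 1, 2 and 3, a mean of 48.4% ± 1.07 (SD, n = 3). The second class was 7SL RNA, the RNA scaffold of the particle that brings ribosomes making secreted proteins to the endoplasmic reticulum membrane, with 34.0, 40.4 and 39.0% of counts. Mitochondrial ribosomal RNA held 6.24, 2.50 and 2.98%, and the 13 mitochondrial protein genes 4.0, 1.53 and 1.81%. Replicate 1 was thus the highest library for both mitochondrial classes and the lowest for 7SL. With these depths the 95% Wilson interval of a share of counts in a single library is at most 0.039 percentage points wide, and such intervals cover counting error only.

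**Figure D1:**
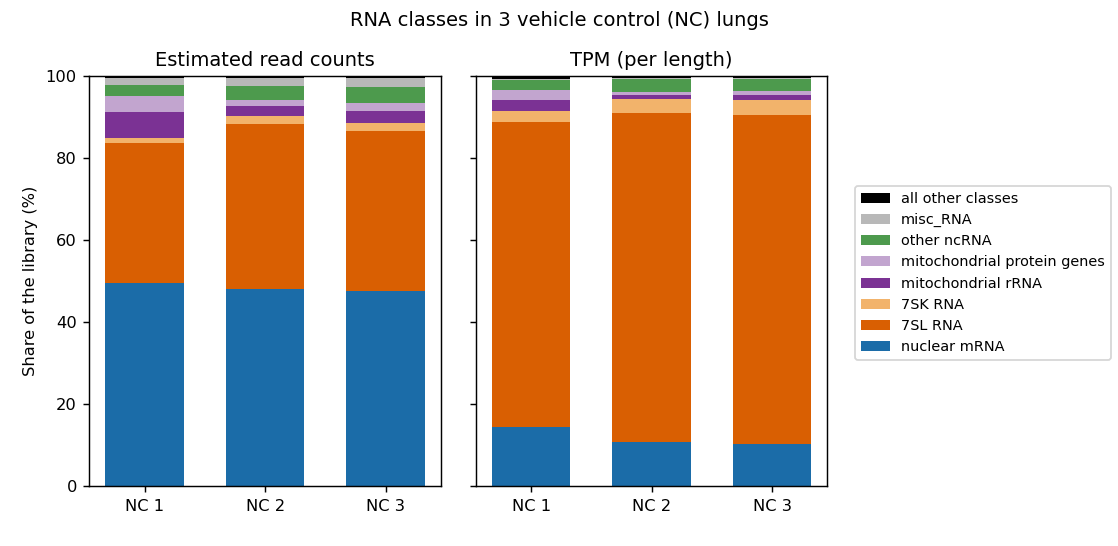
Share of each RNA class (y axis, %) in the 3 NC libraries (x axis), by estimated counts on the left and by TPM on the right. 7SL RNA held 34.0 to 40.4% of counts and 74.6 to 80.4% of TPM, because TPM divides by its short length.

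On the TPM scale the picture was different, since 7SL is 299 bases long. The 7SL genes Rn7s1 and Rn7s2, near-identical copies whose reads cannot be told apart reliably, together held 74.6, 80.4 and 80.4% of TPM, and nuclear mRNA 14.3, 10.7 and 10.1%. 7SK RNA (Rn7sk), which holds the elongation factor P-TEFb inactive, had 25876, 33582 and 37498 TPM. Rpph1, the RNA of the tRNA-trimming ribonuclease P, had 7132, 16943 and 12703 TPM, and Rmrp, the RNA of ribonuclease MRP, 13930, 7856 and 8008 TPM. Rpph1 was thus lowest and Rmrp highest in replicate 1, and the ranges of both overlapped that of the neighbour in rank. Precursors of microRNAs took 0.00509 to 0.00886% of counts.

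Mitochondrial transcripts made up 6 of the 12 most abundant genes outside nuclear protein-coding ones. The large mitochondrial ribosomal RNA (mt-Rnr2) had 23448, 8243 and 10498 TPM. COX1, a catalytic subunit of cytochrome c oxidase, had 10564, 3326 and 4441 TPM, and COX3, of the same complex, 5382, 1334 and 1773 TPM. The other mitochondrial members were mt-Rnr1, COX2 and the transfer RNA TrnS1, which abuts COX1. All 13 mitochondrial protein genes were highest in replicate 1, on the deposited scale as on the mRNA scale, with summed mRNA TPM 1.90 times the mean of the other libraries. Malat1, a nuclear long non-coding RNA, ran the other way with 672, 958 and 1457 TPM, as did Neat1, the scaffold of paraspeckles, with 44.4, 115 and 157 TPM. Fendrr, a long non-coding RNA next to Foxf1, had 5.66, 32.0 and 39.7 TPM.

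At least 1 TPM in all 3 libraries was reached by 10982 of 45777 genes (24.0%). Of the 21936 nuclear protein-coding genes 10363 (47.2%) reached it, against 590 of the 23804 other nuclear genes (2.48%). A mean of 100 TPM was reached by 118 genes, 87 of them nuclear and protein-coding. No count in any NC library was recorded for 21190 genes (46.3%), and for 5519 of the protein-coding ones (25.2%). Because 7SL takes up most of the TPM, 1 TPM is a strict limit here, and 13475 protein-coding genes had at least 1 mRNA TPM in all 3.

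By TPM, a single gene stood far above the others in the mRNA of these lungs. Scgb1a1 (chr19:9083642-9087956), the club cell secretory protein, had 27766, 13749 and 10776 TPM, which is 19.4, 12.8 and 10.6% of nuclear mRNA TPM. By read counts, which are not divided by its length of 468 bases, it held a mean of 2.56% of nuclear protein-coding genes. On TPM its lowest library lay above the highest library of the next gene, Cbr2, so this first rank by TPM did not depend on the library. Cbr2 (chr11:120729485-120732025), a carbonyl reductase of mouse lung, had 3175, 1656 and 1365 TPM. Cyp2f2, a cytochrome P450 of club cells that activates naphthalene, had 2098, 1113 and 767 TPM, and Scgb3a2, another secretoglobin, 2311, 993 and 648 TPM. These 4 genes were highest in replicate 1 and lowest in replicate 3, and the ranges of Cbr2, Cyp2f2 and Scgb3a2 overlapped.

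**Figure D2:**
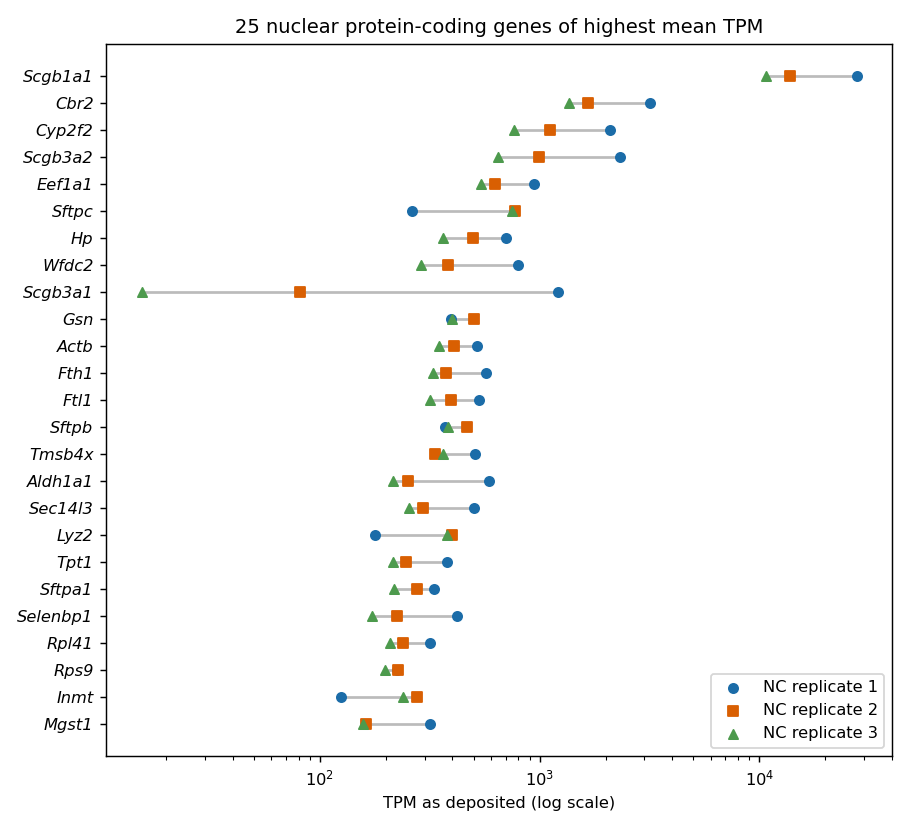
TPM as deposited (x axis, log scale) of the 25 nuclear protein-coding genes of highest mean TPM, with 1 symbol per NC library and a grey line over their range. Scgb1a1 stands alone at 10776 to 27766 TPM, while Scgb3a1 spans 15.5 to 1210.2 TPM.

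The top 10 nuclear protein-coding genes held 27.7, 18.97 and 15.7% of nuclear mRNA TPM in replicates 1, 2 and 3, and the top 100 held 40.2, 31.9 and 27.4%. Of those 100 genes 41 encode ribosomal proteins. The 81 ribosomal protein genes with a mean of at least 10 TPM took 6.92, 7.07 and 6.28% of nuclear mRNA TPM, close together in the 3 libraries, with Rpl41 the highest at 318, 239.8 and 209 TPM.

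Genes of the alveoli were also among the 25. Surfactant protein C (Sftpc, chr14:70520941-70524081), made by alveolar type 2 cells, had 261, 775 and 746 TPM. Sftpb had 372, 468 and 381 TPM, and Sftpa1, which encodes the collectin surfactant protein A, 330.4, 276 and 218 TPM. Sftpc was thus lowest in replicate 1 on both scales. Sftpb was also lowest there and differed by less, at 0.640 times the mean of the others on mRNA TPM. Sftpa1 was highest in replicate 1 on deposited TPM and between the others on mRNA TPM, at 2310, 2566 and 2156. Lysozyme 2 (Lyz2), of macrophages and alveolar type 2 cells, had 178, 397 and 381 TPM. Inmt, a methyltransferase abundant in mouse lung, had 125, 275 and 239.8 TPM.

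Other secreted or protective proteins filled much of the remaining list. Haptoglobin (Hp), which binds free haemoglobin, had 706, 498 and 363 TPM. Wfdc2, an airway protein with a protease inhibitor fold, had 801, 382 and 288 TPM. Aldh1a1, which oxidises retinal and other aldehydes, had 589, 253 and 216 TPM. Iron-storing ferritin was represented by Fth1 with 569.98, 377 and 325 TPM and by Ftl1 with 529, 395 and 316 TPM. Both ferritin genes, like Eef1a1, Actb, Tmsb4x and the ribosomal protein genes, have processed pseudogenes that can share reads. Sec14l3, a lipid transfer protein, had 505, 294 and 255 TPM, Selenbp1 421, 224 and 173 TPM, and Mgst1, a microsomal glutathione transferase, 316, 162 and 158 TPM. Gelsolin (Gsn), which severs actin filaments, had 394, 502 and 397 TPM. The range of each gene after Scgb1a1 overlapped that of the next in rank. Overlap of ranges does not settle the order within a library. Cbr2 was above Cyp2f2, and Scgb3a2 above Eef1a1, in every library, whereas the order of Cyp2f2 and Scgb3a2 changed between libraries.

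Detoxifying enzymes were well represented. Of 22 xenobiotic metabolism genes 20 had at least 1 TPM in all libraries, and the sum of the list was 7312, 3877 and 3049 TPM. Beyond Cbr2, Cyp2f2 and Aldh1a1 the highest were Ces1d, a carboxylesterase, with 278, 198 and 151 TPM, and Por, the electron donor of the P450s, with 147, 98.5 and 73.9 TPM. All 18 antioxidant and Nrf2 pathway genes had at least 1 TPM in every library. They were led by Prdx6, a peroxiredoxin with phospholipase activity that also handles surfactant lipid, with 199.6, 136 and 102 TPM, followed by Sod1 with 115, 86.5 and 70.4 TPM. On the mRNA scale the antioxidant list was nearly level, with replicate 1 at 1.06 times the mean of the others, while the xenobiotic list was at 1.54 times.

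Markers of the airway epithelium were measured first among the 35 marker lists. The 8 club genes summed to 37886, 18359 and 14167 TPM, the highest of all lists. The 10 ciliated genes had at least 1 TPM in every library and summed to 636, 339 and 292 TPM, led by Tppp3 with 198, 135 and 90.7 TPM. Foxj1, the regulator of motile cilia, had 61.0, 30.4 and 27.6 TPM. Every club and every ciliated gene was highest in replicate 1 on both scales, with summed mRNA TPM 1.70 and 1.47 times the mean of the other libraries.

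Goblet markers varied far more. Their sum was 256, 29.9 and 9.89 TPM, and on the mRNA scale replicate 1 was at 9.52 times the mean of the others. The list member Bpifb1, with 135, 12.5 and 2.46 TPM, made up 50.7% of the mean sum in TPM. Muc5b and Tff2 followed, and Agr2, Muc5ac and Spdef added little. The gel-forming mucin Muc5b had 72.1, 11.4 and 5.47 TPM, and its relative Muc5ac 1.60, 0.411 and 0.260 TPM. Spdef, the goblet cell transcription factor, had 132, 48 and 0 counts. The basal cell keratins Krt5 and Krt14 had no count in any library, which with a limit of 3 counts allows up to 0.0712, 0.0978 and 0.119 CPM (counts scaled to the library total) in replicates 1, 2 and 3. Trp63, the basal cell transcription factor, had 26, 0 and 14 counts. Calca, the neuroendocrine peptide gene, had 176, 21 and 60 counts.

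The alveolar lists pointed the other way. All 13 alveolar type 2 genes and all 12 alveolar type 1 genes had at least 1 TPM in every library. The type 2 genes summed to 1335, 2035 and 1846 TPM and the type 1 genes to 219.8, 536 and 464 TPM. Ager (chr17), the receptor for advanced glycation end products and the most abundant type 1 marker, had 51.5, 255 and 193 TPM. Hopx, a homeodomain cofactor of type 1 cells, differed less with 45.5, 50.4 and 57.0 TPM. On the mRNA scale 11 of the 13 type 2 genes and all 12 type 1 genes were lowest in replicate 1, and the sums there were 0.502 and 0.321 times the mean of the others. On deposited TPM 10 genes of each list were lowest there, and the sums were 0.688 and 0.440 times the mean of the others. The ratio of Scgb1a1 to Sftpc TPM was 106 in replicate 1, 17.7 in replicate 2 and 14.4 in replicate 3. Within the alveoli the ratio of Sftpc to Ager was closer, at 5.07, 3.04 and 3.86.

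Endothelial markers were low in replicate 1 and close together in the others. The 11 pan-endothelial genes summed to 98.8, 337 and 339 TPM, and all 11 were lowest in replicate 1 on both scales. Egfl7, a secreted vessel protein, led with 30.5, 95.6 and 109 TPM, and Pecam1, the junction protein CD31, had 8.70, 26.5 and 28.1 TPM. All 8 general capillary genes and all 7 aerocyte capillary genes, markers of the capillary cell type specialised for gas exchange, were lowest in replicate 1 on the mRNA scale. On deposited TPM all 8 general capillary genes and 6 of the 7 aerocyte genes were lowest there. Tbx2 had the highest mean of the aerocyte list with 6.84, 36.7 and 27.1 TPM, although Kdr, a receptor for vascular endothelial growth factor, was above it in replicate 1 with 16.7, 24.3 and 24.4 TPM, and Car4, a carbonic anhydrase, had 2.50, 6.36 and 5.86 TPM. Von Willebrand factor (Vwf), of larger vessels, had 8.12, 25.8 and 19.8 TPM. Ackr1, a marker of venules, had no count in any library. The growth factor Vegfa, made by alveolar epithelium, had 18.9, 75.3 and 88.8 TPM.

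**Figure D3:**
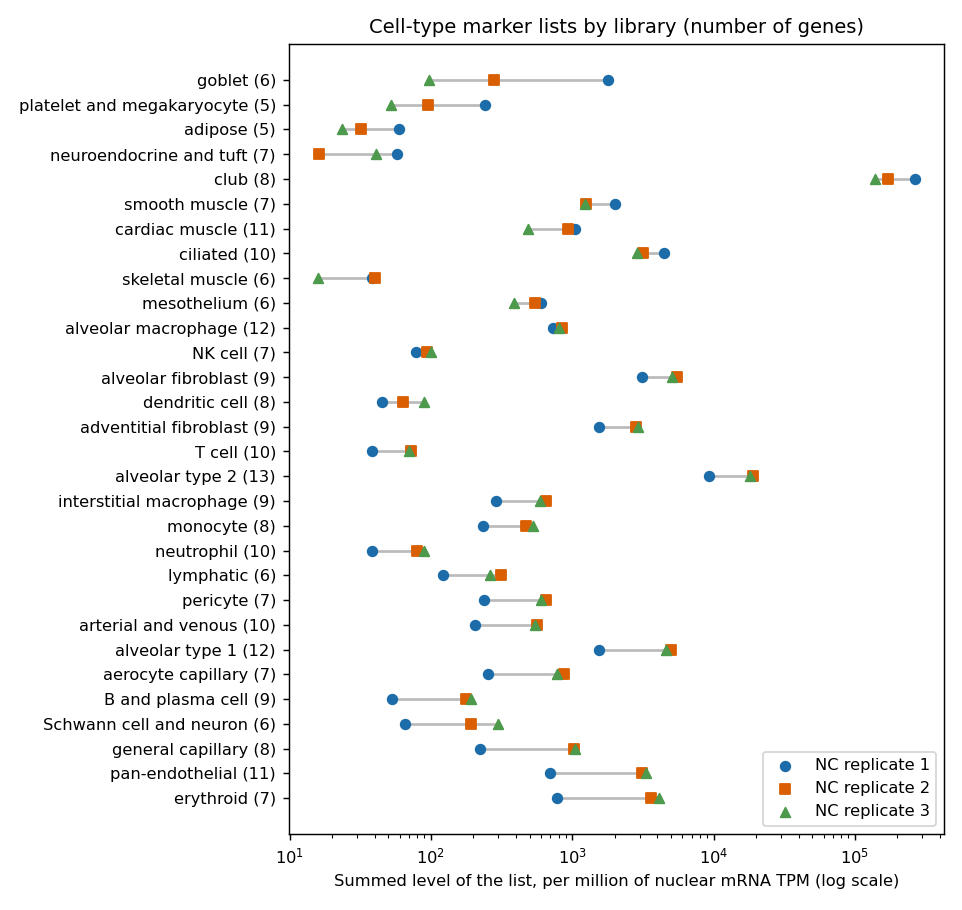
Summed level of 30 cell-type marker lists in mRNA TPM (x axis, log scale), with 1 symbol per NC library and the number of genes in parentheses, ordered by replicate 1 over the mean of the others. Goblet is at the top (9.52 times) and erythroid at the bottom (0.202 times); lists with a sum of 0 in a library or a mean under 1 TPM are left out.

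The mesenchyme was split. The 7 smooth muscle genes were all highest in replicate 1 on both scales, led by smooth muscle actin (Acta2) with 89.1, 38.1 and 35.3 TPM and Tagln with 55.9, 25.9 and 27.5 TPM. The 7 pericyte genes were all lowest there, among them Pdgfrb with 5.03, 14.3 and 11.3 TPM. Alveolar fibroblast genes were led by Inmt and Ces1d, and Pdgfra, the receptor for platelet-derived growth factor A, had 9.40, 18.8 and 22.8 TPM. The fibrillar collagen gene Col3a1 had 52.6, 104 and 104 TPM, Col1a2 had 49.8, 79.6 and 70.3 TPM, and Col1a1 had 39.4, 71.4 and 65.4 TPM. These collagens led the list of 9 adventitial fibroblast genes, which did not run one way. On deposited TPM only these 3 were lowest in replicate 1, and 5 others were highest there. On the mRNA scale 5 of the 9 were lowest there and 1, Dcn, was highest, with 294, 174 and 214 mRNA TPM. Of 21 matrix genes 19 were lowest in replicate 1 on deposited TPM and 20 on the mRNA scale. Col4a3, a chain of the alveolar basement membrane, had 10.9, 155 and 117 mRNA TPM, the tenth largest coefficient of variation on that scale.

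Leukocyte markers were low throughout. The 12 alveolar macrophage genes summed to 105, 91.6 and 81.1 TPM, most of it from cathepsin D (Ctsd), which many cells express. Chil3, a chitinase-like protein of mouse alveolar macrophages, had 12.3, 21.5 and 12.2 TPM. In the interstitial macrophage list Apoe had 27.7, 47.2 and 37.9 TPM and C1qa, a complement component, 3.76, 7.35 and 8.41 TPM. Cd79b, a signalling chain of the B cell receptor, had 1.88, 4.61 and 4.97 TPM, while the T cell list summed to 5.45, 7.77 and 7.05 TPM. The 7 natural killer cell genes summed to 78.5, 93.1 and 99.4 mRNA TPM, with 4 genes highest and 3 lowest in replicate 1. The granzyme Gzma, first of them by mean level, had 6.01, 3.02 and 3.33 TPM.

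Neutrophil markers summed to 5.50, 8.51 and 9.11 TPM over 10 genes. S100a9 had 49, 86 and 98 counts, and Ly6g, Camp, Ngp and Mpo had none in any library. The mast cell and basophil genes Tpsb2, Mcpt8, Cma1 and Fcer1a also had none. Most inflammatory genes were low, and 2 of 14 had at least 1 TPM in every library. The list summed to 19.8, 10.7 and 8.08 TPM. None was lowest in replicate 1, and 9 were highest there on deposited TPM and 7 on mRNA TPM. Cxcl3, Cxcl9 and Acod1 had no count, Tnf had 0, 0 and 17 counts, and Il6 had 9, 0 and 0. Saa3, an acute phase protein, had 89, 0 and 0 counts. The prostaglandin synthase Ptgs2 had 8.88, 3.40 and 3.57 TPM and lipocalin 2 (Lcn2) 7.84, 7.10 and 3.71 TPM. For the genes with a handful of counts, no order between the libraries can be read.

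Blood and neighbouring tissues were checked as well. The 7 erythroid genes summed to 111, 386 and 417 TPM, nearly all from haemoglobin, with the beta chain Hbb-bs at 43.5, 127 and 133 TPM. The alpha genes Hba-a1 and Hba-a2 are near-identical, so only their sum is reliable. Platelet genes ran the other way with Ppbp at 16.3, 2.87 and 1.26 TPM. Cardiac genes were present, led by the actin Actc1 with 62.6, 28.4 and 22.4 TPM. The heavy chain Myh6 had 20.6, 20.0 and 3.99 TPM and the atrial light chain Myl7 18.0, 17.4 and 4.19 TPM. The source of these transcripts was not tested. Myl2, the ventricular light chain, had no count, and neither had the skeletal muscle genes Acta1 and Myh4. Further genes without a count in any NC library were Wt1 (mesothelium), Lep (fat), Acan, Matn1 and Col9a1 (cartilage), Dntt, Rag1 and Ptcra (thymus), and Apoa1 and Ttr (liver). The Y-linked genes Ddx3y, Eif2s3y, Kdm5d and Uty each had at least 3.09 TPM in every library and Xist had 28, 0 and 51 counts, as in males.

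Further lists covered other cell populations. Fat, nerve and mesothelium gave little signal beyond genes that other lung cells share: the mesothelium list was carried by the keratin Krt19, also made by airway epithelium, with 81.4, 55.4 and 34.8 TPM, and the Schwann cell and neuron list by the sodium channel Scn7a, also found in lung fibroblasts, with 6.39, 19.7 and 29.8 TPM. Lyve1, of lymphatic vessels, had 4.68, 12.004 and 10.1 TPM, and Ccr2, the chemokine receptor of classical monocytes, 3.43, 3.51 and 4.18 TPM. The 8 dendritic cell genes summed to 6.48, 6.77 and 9.02 TPM.

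Transport, stress and growth genes completed the survey. The sodium channel subunit Scnn1a, through which lung epithelium takes up fluid, had 31.8, 23.9 and 21.3 TPM, and the water channel Aqp5 22.6, 20.0 and 17.9 TPM. Fos, an immediate early gene, had 44.0, 18.3 and 18.97 TPM, while Jun had 25.3, 27.5 and 24.6 TPM. Mki67, a gene of dividing cells, had 1.09, 0.932 and 1.29 TPM, low in all libraries. In a list of 15 inflammasome and apoptosis genes of the study, Bax, which permeabilises mitochondria in apoptosis, had the highest mean. It had 8.07, 8.17 and 8.13 TPM. Txnip, which the study also examined, was counted with the antioxidant list. Of 13 housekeeping genes measured, 12 were highest in replicate 1 on deposited TPM and 5 on mRNA TPM, where their sum was 1.16 times the mean of the others.

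A list of 21 transcription factors of lung was measured as well. Nkx2-1, which specifies lung epithelium, had 11.9, 13.4 and 17.8 TPM. Epas1, the hypoxia factor abundant in lung endothelium and type 2 cells, was the highest of the list with 139.9, 176 and 135 TPM. Sox2, a factor of conducting airway epithelium, had 10.1, 4.63 and 3.66 TPM, and Foxf1, of lung mesenchyme and endothelium, 4.46, 8.28 and 10.1 TPM. Of the 21 factors 16 were lowest and 4 highest in replicate 1 on deposited TPM, and 17 and 3 on the mRNA scale. The share of all genes lowest there was not counted, so these counts say nothing particular about the factors.

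The 10 genes with the largest relative spread on deposited TPM were all highest in replicate 1. Bpifa1 (chr2), a secreted antimicrobial protein of upper airway epithelium, had 585, 11.9 and 1.90 TPM, a coefficient of variation of 167%. Reg3g, an antibacterial lectin, had 115, 4.94 and 1.90 TPM (159%). Scgb3a1, whose upstream sequence is shown above, had 1210.2, 80.8 and 15.5 TPM (154%), and Bpifb1, a relative of Bpifa1, 135, 12.5 and 2.46 TPM (148%). In all 4 genes replicate 1 was the highest and replicate 3 the lowest library. Tff2, Cyp2a5, Ltf, Sult1d1, Muc5b and Lypd2 completed the 10. Cyp2a5 has close paralogues that can share its reads. The 9 genes with the largest spread were the same on the mRNA scale. Without replicate 1 the Bpifa1 libraries still differed, at 111 against 18.8 mRNA TPM in replicates 2 and 3.

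**Figure D4:**
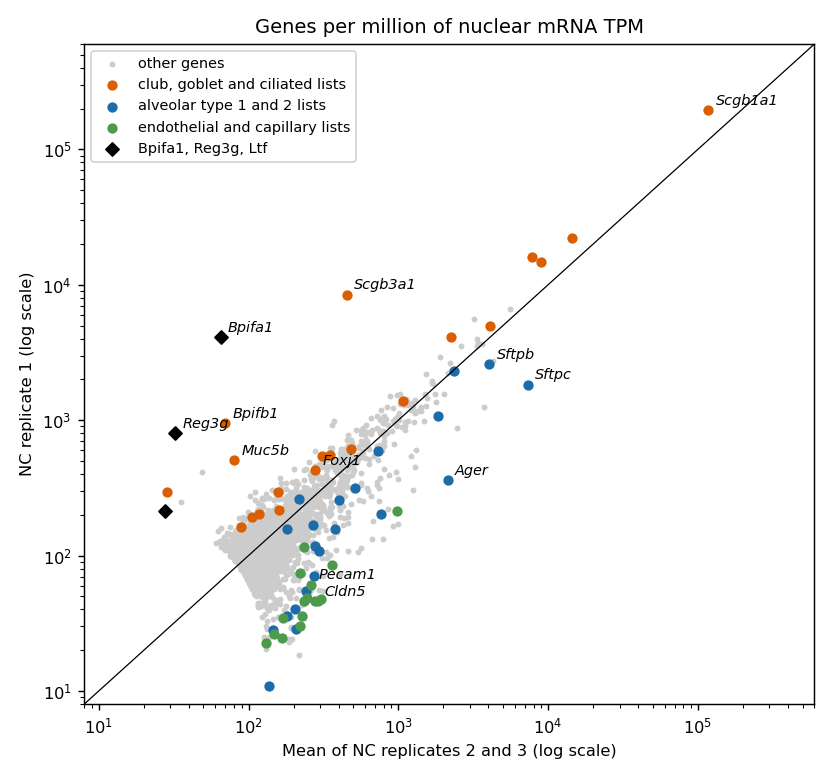
Level of 2072 nuclear protein-coding genes in NC replicate 1 (y axis) against the mean of NC replicates 2 and 3 (x axis), both in mRNA TPM on log scales, with the line of equality. Airway genes such as Bpifa1 and Scgb3a1 lie above the line, and alveolar and endothelial genes such as Sftpc, Ager and Pecam1 lie below it.

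The median coefficient of variation of these 2072 genes was 22.2% on deposited TPM and 19.3% on mRNA TPM. Between replicates 2 and 3 alone the median was 9.50% on mRNA TPM. A common biological coefficient of variation, edgeR's estimate of the spread beyond counting error, was 0.302 over the 3 libraries and 0.153 without replicate 1. On deposited TPM the steadiest genes were Eif4g1, a scaffold of translation initiation, with 24.1, 24.2 and 24.2 TPM, followed by Psmd3, Larp1, Fstl1, Srsf3, Ggnbp2, Sec31a, Add3, Mia2 and Stub1, all at 1.23% or less. This depends on the scale, since their coefficients on mRNA TPM were 16.4 to 18.2%. There the smallest was that of Tm9sf2, an endosomal membrane protein, with 159, 162 and 161 mRNA TPM (0.774%). Among genes often used as a reference, Actb was close on this scale, with 3626, 3775 and 3456 mRNA TPM.

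Transcript use was steady for the most abundant genes. Of the 25 top nuclear protein-coding genes 11 have a single transcript in the table, and in all 25 the same transcript led in every library with at least 84.2% of the gene's TPM. That minimum belonged to Sftpb, whose variant 1 held 85.0, 84.2 and 85.6%. Over the 1411 genes with several transcripts and a mean of at least 10 TPM, the main transcript held a median of 69.0% of the gene's TPM. It held at least 80% in 533 genes (37.8%) and under 50% in 368 (26.1%). In 897 genes (63.6%) the same transcript led in all 3 libraries. The main transcript was a curated mRNA in 1202 genes (85.2%) and a predicted one in 177 (12.5%).

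Claudin-18 was read mainly from its lung start. Transcripts from the A1 start at position 99710063 of chromosome 9 held 83.4, 98.5 and 94.8% of Cldn18 TPM, a mean of 92.2% ± 7.84 (SD, n = 3). Those from the A2 start, 7204 bases upstream, held the rest, from 456, 68 and 185 counts. These are the starts behind the windows shown above. Replicate 1 had the highest A2 share, also by counts, and the lowest Cldn18 level with 15.4 TPM, against 30.3 and 31.4 TPM in replicates 2 and 3. Within the A1 start, the split between variants A1.1 (70.9, 58.7 and 94.7% of gene TPM) and A1.2 (12.5, 39.7 and 0.171%) varied between libraries more than the start did.

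Several other genes of lung biology divided their output. Ager variant 1 held 70.3, 73.4 and 73.7% and variant 2 23.1, 24.8 and 22.5%, a similar split in libraries whose Ager level differed. In Hopx, variant 1, which starts farther upstream, held 28.1, 54.4 and 47.6%, and variant 2 63.7, 19.5 and 39.9%. Nkx2-1 showed its main transcript at 46.0, 78.2 and 78.5%. The glycolytic enzyme gene Pkm, which uses mutually exclusive exons, had variant 2 at 49.1, 78.3 and 83.3% and variant 1 at 50.1, 20.7 and 15.4%. In each of Hopx, Nkx2-1 and Pkm replicate 1 lay outside the range of the others, but these genes were chosen with earlier results known. Over the 1411 genes, the same transcript led in 71.4% for replicates 1 and 2. It was 76.1% for replicates 1 and 3, and 72.6% for 2 and 3, so replicate 1 did not stand apart by that measure.

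**Figure D5:**
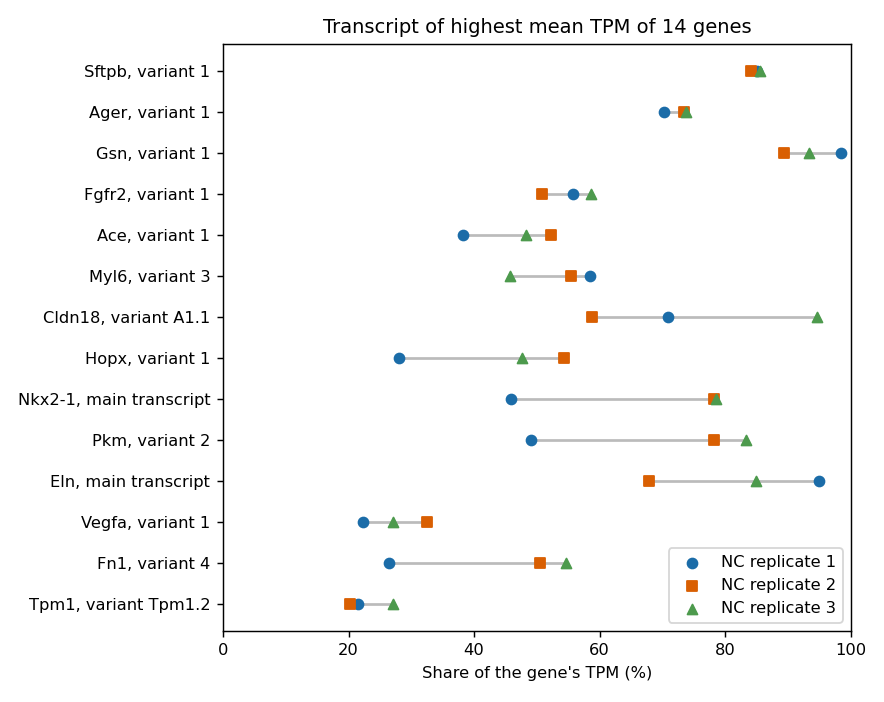
Share of the gene's TPM (x axis, %) held by the transcript of highest mean TPM in 14 genes, with 1 symbol per NC library. Sftpb variant 1 stays within 84.2 to 85.6%, while Pkm variant 2 ranges over 49.1 to 83.3% and is lowest in NC replicate 1.

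Angiotensin-converting enzyme (Ace), of lung endothelium, was split between variant 1, with 38.3, 52.3 and 48.2%, and variant 3, with 60.9, 44.8 and 48.1%, while its shorter variant 2 held 0.787, 2.89 and 3.70%. The receptor gene Fgfr2 varied less between libraries, with variant 1 at 55.8, 50.8 and 58.5%. Vegfa was spread over 10 transcripts, all with counts in every library, and its leading one held 22.3, 32.4 and 27.1%. Fibronectin (Fn1) variant 4 held 26.4, 50.6 and 54.6%, and tropomyosin 1 (Tpm1), with 38 transcripts in the table, had Tpm1.2 at 21.5, 20.2 and 27.1%. For elastin (Eln) the main transcript held 94.9, 67.8 and 84.9%. Fbln2, a low gene with 669, 616 and 413 counts, was assigned to variant 1 in replicate 1 (98.9%) and to predicted variant X1 in replicates 2 and 3 (100% and 98.8%). Transcripts of a gene share most of their sequence, so such shares are estimates of the assembly program and have no counting interval.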

How the data were processed

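Paired-end RNA-seq of mouse lung tissue was deposited as 1 table of 129299 RefSeq transcripts on mm10. The authors deposited estimated counts in whole numbers, not normalized, together with FPKM and TPM values, both divided by transcript length and scaled to depth. Trimmomatic 0.38 for trimming, then HISAT2 2.1.0 and StringTie 2.1.3b, are listed in the submitters' processing notes beside DESeq2. The paper's methods name HTSeq for counting instead. The kit is a stranded total RNA one in the labels and a TruSeq RNA one in the paper. Whether counting used strand is not given in the sources used here, so overlapping genes on opposite strands may share reads. The 18 value columns of the other groups were not used here.

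Values of the 3 NC libraries were summed over transcripts by gene ID (Python 3.11.15, pandas 2.3.3). No test was made, since there is a single group. The common biological coefficient of variation came from edgeR 4.0.16 (TMM, intercept only, R 4.3.3), whose steps were tested on simulated data, and DESeq2 1.42.0 gave size factors for an alternative. Named were the 25 nuclear protein-coding and 12 other genes of highest mean TPM, up to 5 leading members of each list and those without counts, and the 10 largest and 10 smallest coefficients of variation among nuclear protein-coding genes of at least 10 TPM and 100 counts. Not every gene so chosen is reported, and other list members and the sequences shown were picked after values were seen. The 35 marker lists and 15 further lists hold 473 genes, of which 472 are in the table. The members and lists were chosen with earlier results of these data known. A count of 0 was read as up to 3 counts per library.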

Additional observations from a re-analysis of the deposited data

How the results depend on the processing

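No paired analysis was possible because the results come from no test and from a single group. By TPM in place of counts, nuclear mRNA held 11.7%, 7SL RNA 78.5% and mitochondrial ribosomal RNA 1.67% of a library. At least 5 TPM in all 3 libraries was reached by 3999 genes, in place of 10982 at 1 TPM. Ranked by read counts, 14 of the 25 most abundant nuclear protein-coding genes were found again, since long transcripts collect more reads, and Scgb1a1 held 2.56% in place of 14.3%. The median share of the main transcript was 62.3% over genes of at least 1 TPM and 89.9% over genes of at least 50 TPM. With no filter on low counts the common biological coefficient of variation was 0.458. Leaving out 1 library at a time it ran from 0.153 (without replicate 1) to 0.361 (without replicate 2), so its size rests on replicate 1. The other 57 alternatives for these main results stayed within the spread between libraries or within 1.5 times the value. For the class shares and the Scgb1a1 share, leaving out 1 library could not move the mean beyond that spread. Nor could taking the median of the Scgb1a1 share, so those alternatives were no check. For single marker lists, the ratio of replicate 1 to the others changed by over 1.5 times in 5 lists on TMM-scaled CPM and not in 28. These were goblet (7.81 against 12.9 on deposited TPM), neuroendocrine and tuft, monocyte, neutrophil, and Schwann cell and neuron. With FPKM or mRNA TPM none of 33 ratios changed by that much. Moving from TPM to either scale multiplies all genes of a library alike, so all lists shift by nearly the same factor. These are thus not separate checks of each list. With 3 libraries a level that differs between them can be described and not tested.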
